A study of Mus musculus with 2 samples.

Results

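The clustered protocadherins are the adhesion genes whose symbols begin with Pcdha, Pcdhb or Pcdhg. They were taken by symbol from the GENCODE M21 annotation of mouse chromosome 18 (mm10), which holds 58 such genes among 55413 genes on chromosomes 1 to 19, X and Y. There are 14 Pcdha, 22 Pcdhb and 22 Pcdhg genes, all 58 on the plus strand, spread over 911.7 kb (chr18:36930184-37841873). M21 gives the symbol Pcdha11 to 2 genes, ENSMUSG00000007440.10 at 37005203 and ENSMUSG00000102206.5 at 37010752. RefSeq places the start of Pcdha10 at 37005320, 117 bp from the former. Pcdhgb8 is annotated as a polymorphic pseudogene.

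Open chromatin at these genes was measured by DNase-seq, which sequences the ends left by a light digestion of nuclei with the enzyme deoxyribonuclease I, so that accessible DNA gives peaks. The tissue was the whole urinary bladder of 2 female mice of the hybrid strain B6CASTF1/J at 36 days of age, with no treatment named, numbered 5 and 6 in the labels and called replicate 1 and replicate 2 below. The animals form 1 group with 1 library each and no control, so no test could be run, and error is given as the SD of the values of these animals. Both libraries carry the same strain-level donor record, and only their separate biosamples and animal numbers state that they came from different animals. In a whole tissue, fewer cells with an open site and less opening per cell cannot be told apart.

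Clustered protocadherins are cell surface proteins that let neurons tell their own branches from those of other neurons. Each gene has a variable exon of its own with its own promoter, and in the Pcdha and Pcdhg clusters that exon is spliced to constant exons shared by the whole cluster, while Pcdhb genes have a single exon. In neurons most of these promoters are chosen at random through looping that CTCF and cohesin build with distant enhancers, whereas the C-type genes at the end of the Pcdha and Pcdhg clusters are used more uniformly and, for some, outside neurons. Outside the nervous system the clusters are known as largely silent and methylated.

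Most variable exon starts of the clusters had no peak in the bladder. A start was called open when a peak in the authors' larger list touched the 500 bp on either side of it in both animals, and 10 of the 58 members (17.2%) met this rule, against 60.4% of 21938 protein-coding genes of the genome and 63.7% of the 513 on chromosome 18. A peak was present at 14 members in replicate 1 (62.7% of all genes) and at 15 in replicate 2 (61.9%). Another 9 members had a peak in 1 animal only, 4 in replicate 1 and 5 in replicate 2, compared with 3.79% of all protein-coding genes. The remaining 39 members had no peak in either animal. The authors also listed bases at a false discovery rate of up to 0.05 for the local cut rate, and none of these 39 starts held such a base in either library. Bases at this rate were present in both animals at 12 members, against 61.4% of all genes, because Pcdhb17 and Pcdhga12 had a few in the animal without a peak, at lowest rates of 0.045 and 0.0409.

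**Figure D1:**
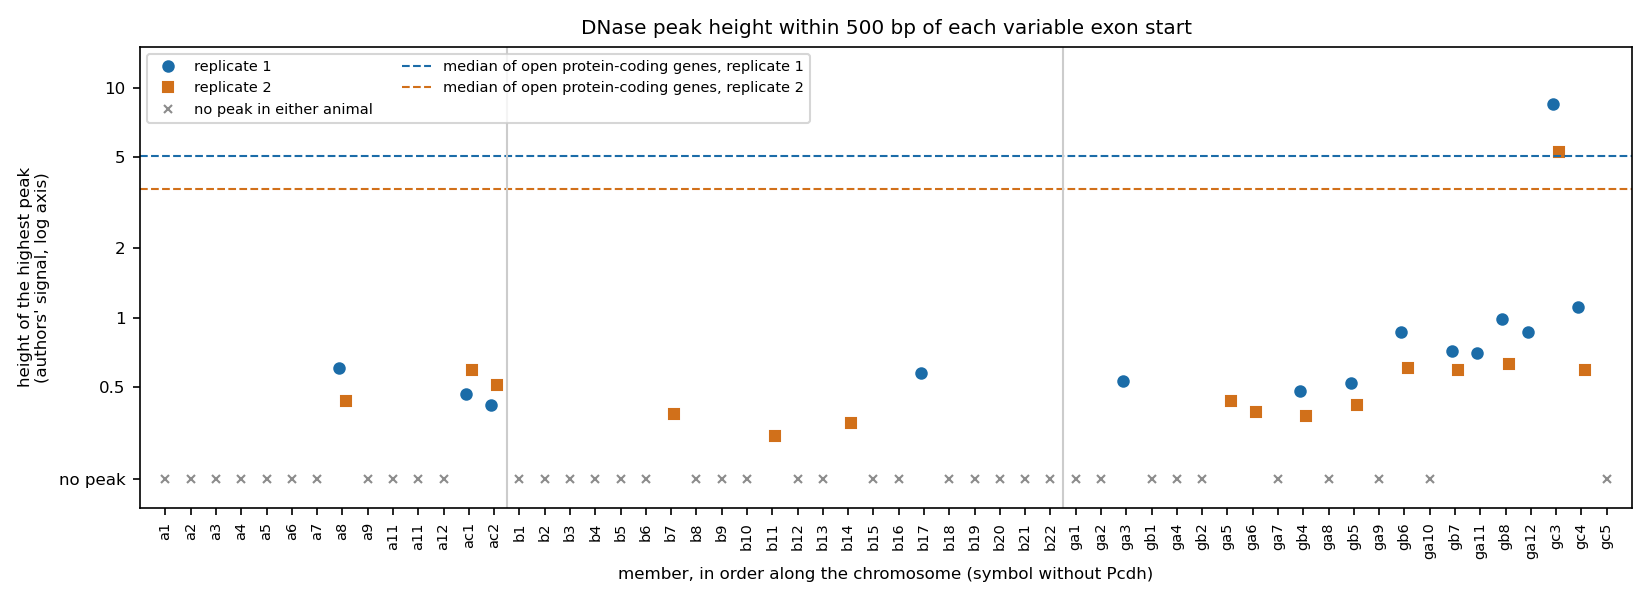
Height of the highest peak within 500 bp of each variable exon start, on a log axis, for the 58 members in their order along the chromosome (circles, replicate 1; squares, replicate 2; crosses, no peak in either animal). Dashed lines are the medians of open protein-coding genes, 5.02 in replicate 1 and 3.61 in replicate 2, and Pcdhgc3 is the member above both of them.

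The C-type genes (4 of 5) and the Pcdhgb genes (5 of 7) were open most often, against 60.4% of all protein-coding genes. The open C-type genes were Pcdhac1, Pcdhac2, Pcdhgc3 and Pcdhgc4. Among the 53 members outside the C-type 6 were open, 5 of them Pcdhgb genes. Peak height is the authors' signal for each peak, whose scaling is not stated. Heights moved in whole steps of 0.00789 in replicate 1 and 0.00849 in replicate 2 (tolerance 0.05 steps). How many reads a step stands for is not given, so the depth is unknown.

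Pcdhgc3, a C-type gene whose protein promotes the branching of dendrites, stood far above every other member. Its peak was 8.50 high in replicate 1 and 5.23 in replicate 2 (6.87 ± 2.31, SD, n = 2), or 1077 and 616 steps. It covered chr18:37806161-37806460 in replicate 2, a narrower part of it in replicate 1, and was centred 99 bp before the start at 37806410 in both. The mean height was 8.04 times that of the next member and lay at percentile 72.4 of the 13251 open protein-coding genes, above their median of 4.34, which no other member reached. Within 500 bp of the start the authors called 5 footprints in replicate 1 and 8 in replicate 2, a footprint being a short stretch within open DNA that is protected from cutting. The lowest false discovery rate there was 0 and 4.55e-33. A further peak lay in the same exon at chr18:37806901-37807480, with heights of 0.92 and 0.99, and another at chr18:37808801-37809000, with 0.93 and 0.72. The peak at the start and the one at chr18:37806901-37807480 also overlap exons of another annotated gene, BC037039.

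Pcdhgc4, a C-type gene known to be needed for the survival of interneurons, was open by the rule but less alike in the animals. Its highest peak was 1.11 in replicate 1 and 0.59 in replicate 2 (0.85 ± 0.37, SD, n = 2). These were different peaks, centred 294 bp after the start in replicate 1 and 16 bp before it in replicate 2, and they did not overlap. Pcdhgc5, the last variable exon, had no peak at its start in either animal.

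The C-type genes of the Pcdha cluster had low peaks. Pcdhac1 had heights of 0.47 in replicate 1 and 0.59 in replicate 2 (0.53 ± 0.091, SD, n = 2), with peaks centred 28 bp after and 42 bp before its start at 37090013. Pcdhac2, known for its part in the spacing of serotonergic axons, had heights of 0.42 and 0.51 (0.46 ± 0.064, SD, n = 2) and peaks centred 248 and 348 bp after its start at 37143503. These were the only open members with a higher value in replicate 2. Their means lay at percentiles 3.65 and 2.49 of open protein-coding genes.

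The Pcdhgb genes held 5 of the 6 open starts among the alternate genes, which are all members but the C-type. Of 7, 5 were open in both animals (Pcdhgb4, Pcdhgb5, Pcdhgb6, Pcdhgb7 and Pcdhgb8), and Pcdhgb1 and Pcdhgb2, which come first along the chromosome, had no peak. Pcdhgb8, the annotated pseudogene, was the highest with 0.99 in replicate 1 and 0.63 in replicate 2 (0.81 ± 0.25, SD, n = 2), or 125 and 74 steps. Pcdhgb4 was the lowest with 0.48 and 0.37 (0.43 ± 0.076, SD, n = 2), or 61 and 44 steps. The centres of these peaks lay between 130 bp before and 3 bp before the start in replicate 1, and between 79 bp before and 62 bp after it in replicate 2, which places all 5 at the promoter itself. At Pcdhgb5 the peaks of the animals, 0.52 and 0.42 high, touched end to end without overlapping, so that 8 of the 10 open members had overlapping peaks in the animals.

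No Pcdhga gene was open in both animals. Of the 12, 5 had a peak in 1 animal: Pcdhga3 (0.53), Pcdhga11 (0.70) and Pcdhga12 (0.87) in replicate 1, and Pcdhga5 (0.43) and Pcdhga6 (0.39) in replicate 2.

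In the Pcdha cluster a single alternate gene of 12, Pcdha8, met the rule. Its peak at chr18:36992861-36992993 was 0.61 high in replicate 1 and 0.43 in replicate 2 (0.52 ± 0.12, SD, n = 2). It began 490 bp after the start at 36992371, inside the variable exon, so it touched the edge of the window and was not at the promoter. No other Pcdha alternate gene had a peak in either animal.

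None of the 22 Pcdhb genes was open in both animals. Pcdhb7 (0.38), Pcdhb11 (0.31) and Pcdhb14 (0.35) had a peak in replicate 2, Pcdhb17 (0.58) had one in replicate 1, and 18 had none. The 3 peaks of replicate 2 were centred within 50 bp of a start, on its upstream side, and the peak of Pcdhb17 lay 140 bp after it. The Pcdhb11 value, the lowest at any member, was 36 steps.

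Where starts of the clusters were open, they were open to a low level. The median height over the 10 open members was 0.593, compared with 4.34 over open protein-coding genes. Without Pcdhgc3 the other 9 lay between 0.428 and 0.854, at percentiles 1.89 to 9.45 of open protein-coding genes. In replicate 1, 5 members had a peak above the median height of all peaks in the list, 0.845, as did 55.7% of all protein-coding genes. In replicate 2 only Pcdhgc3 exceeded its median of 0.739, against 55.5% of all genes, so that it alone passed in both animals (54.2% of all genes). Members with a peak in 1 animal had heights of 0.529 to 0.868 in replicate 1 and 0.306 to 0.433 in replicate 2. In replicate 2, Pcdhb11 and Pcdhb14 lay below the lowest open member, Pcdhgb4 (0.374). Heights were lower in replicate 2 at 8 of 10 open members, with a median log2 ratio of -0.43 (replicate 2 over replicate 1), and at 89.1% of open protein-coding genes, with a median of -0.54 and quartiles of -0.76 and -0.26. The members thus followed the offset between the libraries at all genes.

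The authors' smaller peak list kept few of these starts. It had a peak at 7 members in replicate 1 (57.9% of all genes) and at 2 in replicate 2 (57.2%), and in both animals at Pcdhac1 and Pcdhgc3 alone (55.8% of all genes). Footprints within 500 bp of the start were called at 13 members in replicate 1 (60.5% of all genes), at 8 in replicate 2 (59.7%) and at 6 in both (58.0%). Those 6 were Pcdhac1, Pcdhgb6, Pcdhgb7, Pcdhgb8, Pcdhgc3 and Pcdhgc4.

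Over the whole locus the density of peaks was close to that of the genome, but it was very uneven. The stretch from 50 kb before Pcdha1 to 50 kb after the end of Pcdhg held 41 peaks in replicate 1 and 38 in replicate 2 (39.5 ± 2.12, SD, n = 2), covering 7579 and 6601 bp. This is 0.391 peaks per 10 kb, against 0.404 in the genome, and the mean height was 1.69 and 1.21, against 1.69 and 1.31. Peaks merged to 50 regions, of which 26 were found in both animals, 13 in replicate 1 only and 11 in replicate 2 only.

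**Figure D2:**
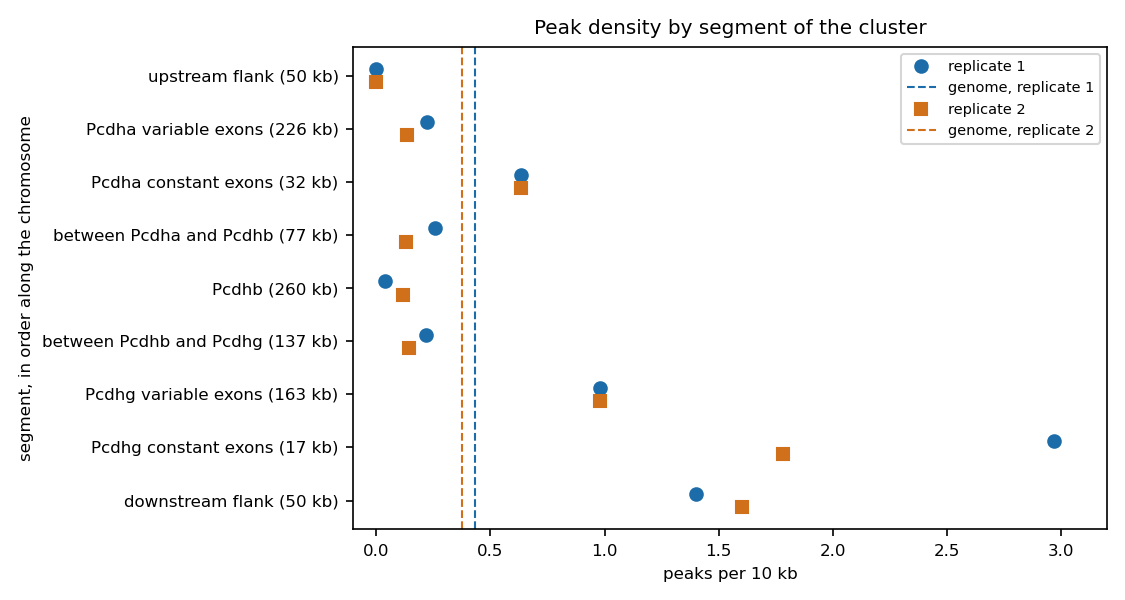
Peaks per 10 kb in each segment of the locus for replicate 1 (circles) and replicate 2 (squares), with the genome-wide density of each list as a dashed line. The Pcdhg segments, the flank after them and the Pcdha constant exons lie above the genome in both animals, while the Pcdhb segment and the Pcdha variable exons lie below it.

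The Pcdhb genes were the barest segment inside the clusters, with 1 peak in replicate 1 and 3 in replicate 2 over 259.5 kb (0.0772 per 10 kb on average). The Pcdha variable exons had 5 and 3 peaks over 226 kb (0.177 per 10 kb), and the Pcdha constant exons 2 and 2 over 31.51 kb (0.635 per 10 kb). The Pcdhg variable exons had 16 and 16 peaks over 163.2 kb (0.98 per 10 kb), and the Pcdhg constant exons 5 and 3 over 16.85 kb (2.38 per 10 kb). The 50 kb after Pcdhg, most of which lies in the gene Diaph1, held 7 and 8 peaks, while the 50 kb before Pcdha1 held none. In both animals the density was above that of the genome in the Pcdha constant exons, in both Pcdhg segments and in the flank after them.

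The highest peaks of the locus lay outside the variable exons, apart from that of Pcdhgc3. Of the 50 regions 5 had a mean height above 3. The highest in replicate 1 was chr18:37852181-37852420, in an intron of Diaph1 10.3 kb after the end of Pcdhg, with heights of 8.74 in replicate 1 and 5.06 in replicate 2 and 5 footprints in each. In replicate 2 the Pcdhgc3 promoter was higher, and the mean heights of the regions, 6.90 and 6.87, differed by less than the spread between animals. Also in introns of Diaph1 were chr18:37883561-37883760, 41.7 kb after Pcdhg, with 6.64 and 3.70, and chr18:37880241-37880460, 38.4 kb after it, with 4.92 and 3.62. The other 2 were the Pcdhgc3 promoter and the promoter of Taf7, a gene for a subunit of the general transcription factor TFIID, which lies between Pcdhb and Pcdhg and had 7.77 and 4.03.

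Distant elements known to act on the Pcdha cluster lie among its constant exons and beyond its end. Regions in those places were not matched to named enhancers here. Between Pcdha and Pcdhb, 30.6 kb after the end of Pcdha, chr18:37218281-37218460 had heights of 3.31 in replicate 1 and 2.45 in replicate 2 (2.88 ± 0.60, SD, n = 2) with 5 and 4 footprints. This intergenic region was higher in both animals than any peak at a Pcdha start. Among the Pcdha constant exons, chr18:37172301-37172480 had 0.70 and 0.48, and chr18:37178480-37178600 had 0.28 and 0.31.

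The end of the Pcdhg cluster held a row of moderate peaks shared by the animals. Inside Pcdhgc5, chr18:37822541-37822760 had heights of 2.40 and 1.60. Among the Pcdhg constant exons, chr18:37829521-37829700 had 1.62 and 1.21, chr18:37835321-37835880 had 1.98 and 1.83, and chr18:37836561-37836980 had 1.96 and 1.42. Each of these 4 regions was higher in both animals than any member start but Pcdhgc3.

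**Figure D3:**
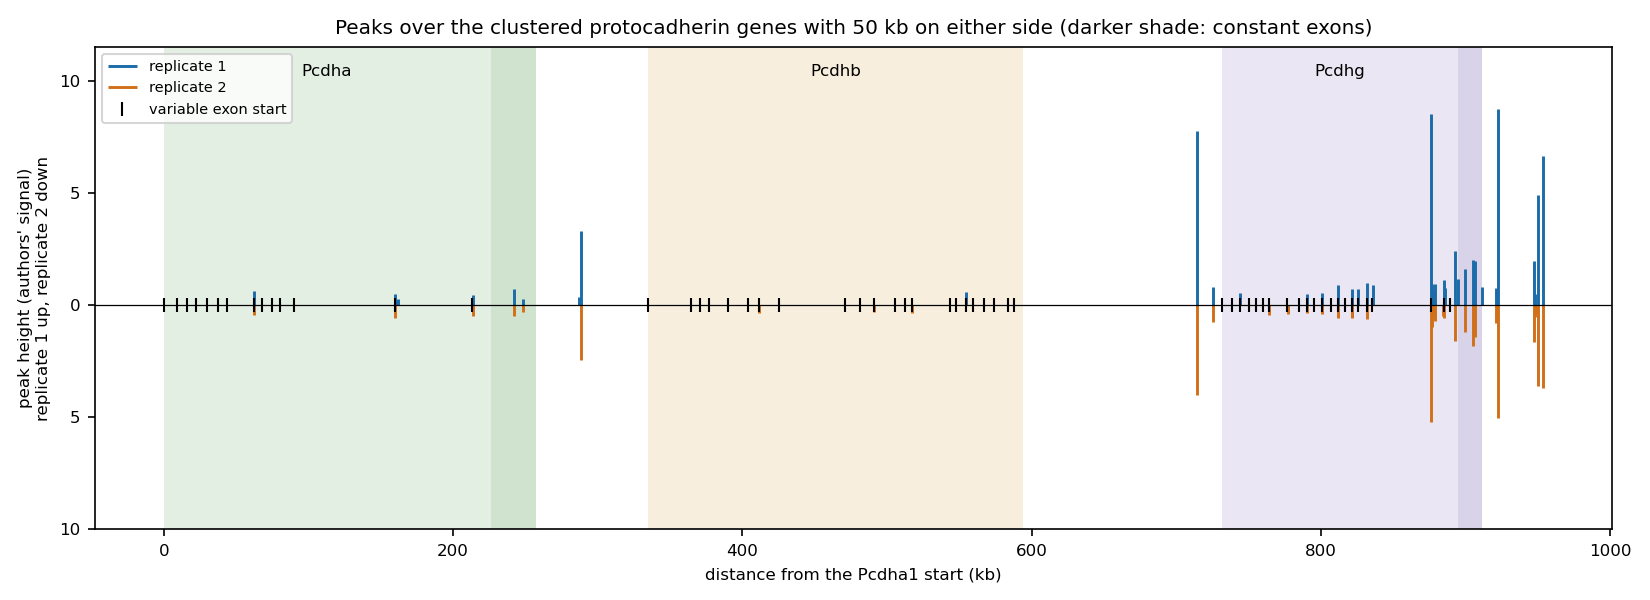
Height of every peak across the locus against the distance from the Pcdha1 start in kb, replicate 1 upwards and replicate 2 downwards, with short black marks at the variable exon starts and darker shading over the constant exons. The tall bars are the Taf7 promoter, Pcdhgc3 and 3 regions after the end of Pcdhg, and the Pcdha and Pcdhb starts carry only short ones.

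CTCF binds many alternate promoters and the exons behind them when they are in use, and its sites there point towards sites of the opposite strand at the enhancers. Its core motif was searched on both strands as a string of 12 bases with 8 fixed letters, and a looser form with 1 fixed letter fewer overlapped it. The core was present within 500 bp of the start in 2 members, Pcdha1 and Pcdhac2 (3.45%, against 7.02% of all protein-coding genes), and the looser core in 23 (39.7%, against 25.5%). Of these 23 members, 13 were Pcdha genes, 8 were Pcdhg genes and 2 were Pcdhb genes. No member had a footprint holding the core within 500 bp of its start in either animal, compared with 1.27% of all genes in both animals and 1.78% in at least 1. With the core in the window of only 2 members, this does not set the members apart from all genes. A match is a description of the letters and no site of binding.

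The core had a regular place in the alternate exons. In 7 Pcdha alternate genes it lay on the plus strand 459 to 581 bp after the start, inside the variable exon. The one in Pcdha8 was the only 1 of the 7 inside a peak, and it lay within a footprint in both animals, so the Pcdha8 peak described above holds a CTCF core in both animals. The looser core occurred on the plus strand 104 to 229 bp after the start in 10 of the 12 Pcdha alternate genes, and 347 to 357 bp after it in 6 Pcdhga genes. In 12 Pcdhb genes the core lay on the minus strand 2271 to 2412 bp after the start, and none of these was in a peak in either animal.

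Over the locus with its flanks there were 64 cores, 25 on the plus strand and 39 on the minus strand. Of these, 5 were in a peak in replicate 1 and 3 in replicate 2. In the Pcdha variable exons 11 of 14 cores were on the plus strand, and among the Pcdhb genes 18 of 23 were on the minus strand. Both animals had a core in a footprint at Pcdha8 and, on the minus strand, in the region 41.7 kb after Pcdhg described above. Replicate 1 alone had one in the last Pcdhg constant exon, at chr18:37841435-37841514 with a height of 0.81. Other cores were in a peak but not in a footprint. A core on the plus strand lay in chr18:37835321-37835880 in both animals. Another, on the minus strand between Pcdha and Pcdhb, lay in chr18:37217424-37217544 in replicate 1 only, with a height of 0.33. Of the peaks in the locus 12.2% and 7.89% held a core, against 8.49% and 9.35% of all peaks.

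The members' starts are poor in G and C for promoters. Over the 1 kb around the start, median GC content was 44.9% in the members and 55.1% in all protein-coding genes, while the ratio of observed to expected CpG was alike at 0.564 and 0.566. The ratio was lowest in Pcdhb (median 0.378) and higher in the Pcdha alternate genes (0.693) and the Pcdhgb genes (0.642). Only 4 members reached both a ratio of 0.6 and a GC content of 50%, namely Pcdhac2, Pcdhgb7, Pcdhgc3 and Pcdhgc4, and all 4 were open, as were 94.6% of the 10007 protein-coding genes with such starts. Of the other 54 members 6 were open (11.1%), compared with 31.7% of the 11931 other genes. Pcdhgc5, the C-type gene without a peak, had a ratio of 0.233.

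**Figure D4:**
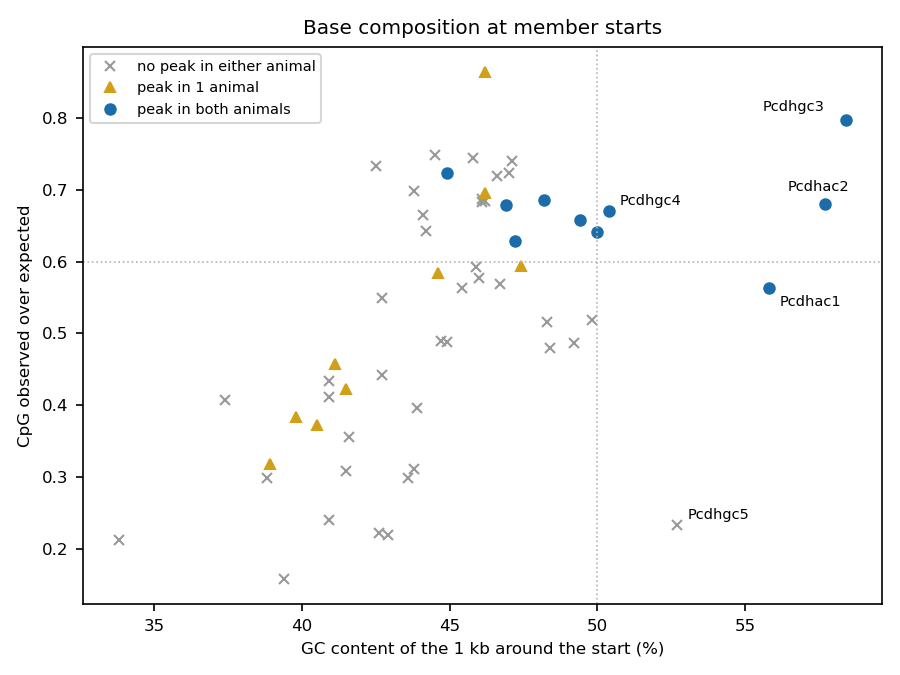
GC content against the ratio of observed to expected CpG in the 1 kb around each variable exon start, with symbols for a peak in both animals, in 1 animal or in neither and dotted lines at 50% and 0.6. The 4 members to the upper right of both lines are open in both animals, and most crosses lie at lower GC content.

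Neighbouring members are similar in sequence, which can keep short reads from being placed at a single position. The share of 31-base words in the start window that occur again in the genome had a median of 1.7% over the members, against 0% over 456 other protein-coding genes of chromosome 18, whose 90th percentile was 5.77%. It was 22.4% in the Pcdha alternate genes (9.89 to 29.0%) and 19.6% in the Pcdhgb genes, but 0% in Pcdhb (0 to 16.1%) and 2.21% in Pcdhga. The lowest value among the Pcdha alternate genes, 9.89%, was that of Pcdha8, the only one with a peak. Of the 39 members without a peak, 18 had under 1% of such words and 12 had 15% or more. Of the 16 members with 15% or more, 4 were open: Pcdhgb4 (29.5%), Pcdhgb5 (23.0%), Pcdhgb6 (20.3%) and Pcdhgb7 (19.6%). The remaining open Pcdhgb gene, Pcdhgb8, had 0%, as did Pcdhgb1 and Pcdhgb2, which had no peak. How the authors treated reads with several places is not given in the sources used here, and the part of this in the calls was not tested.

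The protocadherins outside the clusters, which encode related adhesion proteins from single genes, were open more often. Of 12, 9 were open in both animals (60.4% of all genes). Their median mean height was 1.76, below the 4.34 of open protein-coding genes. The highest were Pcdh17, with 7.002 in replicate 1 and 4.91 in replicate 2, and Pcdh10, with 6.37 and 4.70. The lowest open one was Pcdh20, with 0.66 and 0.35. Pcdh15, a component of the tip links of hair cells, had a peak in replicate 2 only (0.22). Pcdh12, an endothelial gene, and Pcdh1 had none at the main start, although at another annotated start Pcdh1 had 2.30 and 1.13 and Pcdh12 had 0.85 in replicate 1 only.

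All 19 genes of a list of factors that fold or silence the clusters were open, with a median mean height of 5.93. By the same rule 60.4% of all protein-coding genes were open, with a median of 4.34. The highest were Stag1, a cohesin subunit, with 15.6 and 9.17, and Rcor1, a partner of the repressor REST, with 14.96 and 8.99. The lowest was Dnmt3b, a DNA methyltransferase known to methylate the alternate promoters, with 1.28 and 1.64. Ctcf itself had 3.76 and 3.84. Among the other protein-coding genes that overlap the locus with its flanks, Taf7 is described above. Diaph1, which encodes an actin-nucleating formin, starts beyond the flank after Pcdhg and had 9.66 and 4.83 at that start. Slc25a2, a mitochondrial ornithine carrier gene, and the read-through models Gm42416, Gm37013 and Gm37388 had no peak at their starts.

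Markers of the cell types of the bladder were checked by the same rule, which called 60.4% of all protein-coding genes open. Open starts were found for 8 of 8 urothelial, 6 of 6 smooth muscle, 5 of 5 fibroblast and 3 of 4 endothelial markers, and for none of 4 leukocyte markers and none of 4 genes of other organs. At another annotated start, Ins2, a gene of other organs, had 1.15 in replicate 1 and 0.65 in replicate 2. The endothelial marker Pecam1 had 0.61 at such a start in replicate 1 only. The clustered protocadherins are best known in neurons, so markers of nerve cells and glia were read as well. Of 7 neuronal markers 3 were open (Snap25, Tubb3 and Syt1), and Rbfox3, Stmn2, Elavl3 and Elavl4 had no peak at the main start, with summed heights of 1.67 in replicate 1 and 1.12 in replicate 2. Elavl4 had 0.54 in replicate 1 and 0.79 in replicate 2 at another annotated start. Of 4 glial markers 3 were open, with summed heights of 14.97 and 9.33, and Sox10 had no peak. The part of nerve cells in the peaks of the clusters was not tested.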

How the data were processed

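Per the labels the deposited files are on mm10 (GRCm38) and were made for each animal separately. They hold 2 peak lists, footprints and the false discovery rate of the cut rate by base. The footprints carry a false discovery rate threshold of 0.01. For the aligner, the callers and their other thresholds, what was used is not given in the sources used here. The deposited peak height is a signal of the authors with no stated scaling. The authors' false discovery rate is a p-value type column listed up to 0.05. The larger peak list, with 117773 peaks in replicate 1 and 102671 in replicate 2, was the main one.

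Each gene was represented by the start of its transcript with the longest coding sequence in GENCODE M21. A peak or footprint counted when it shared at least 1 bp with the 500 bp on either side. The CTCF core was a consensus of 12 bases with 8 fixed letters, and the looser form left 1 of these free. They were sought on either strand and, for footprints, inside the footprint extended by 5 bp. Repeated words of 31 bases were counted with a script tested on simulated data. Motif matches, base composition and repeated words were read from the mm10 reference alone. The animals are hybrids, and sequence differences between their parental strains were not considered. Percentages for all genes used the same rule. Values were computed with Python 3.11.15, numpy 2.4.6 and pandas 2.3.3. Members with full values were the C-type genes, the highest and lowest open gene of each group and genes with a peak in 1 animal. For other lists the 2 highest, the lowest open and every closed gene were named. The members and lists were chosen with earlier results of these data known. In the marker lists, 2 genes are not reported here.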

Additional observations from a re-analysis of the deposited data

How the results depend on the processing

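The rule for an open start was changed to the smaller peak list, the higher 50% of the peaks, windows of 250 and 1000 bp, other annotated starts, and each animal alone, and 39 of 57 recomputed values stayed within the spread between animals or within 1.5 times the count. The smaller list left 2 open members (1 Pcdha, 1 Pcdhg; 55.8% of all genes), a median height of 3.699 and 17.5 peaks over the locus. The higher 50% of the peaks left Pcdhgc3 alone (1 open member, 0 Pcdha, 1 Pcdhg; 54.2% of all genes), a median height of 6.867 and 16 peaks. The window of 250 bp lost Pcdha8 and gave a median height of 0.6565. The window of 1000 bp and the looser core each gave 1 member with a CTCF-core footprint in both animals. With 1 animal left out, open members numbered 14 to 15, Pcdha 3 to 3, Pcdhb 1 to 3 and Pcdhg 9 to 10, the median height was 0.4332 to 0.6552, peaks over the locus numbered 38 to 41, starts with a footprint 8 to 13, and starts with a CTCF-core footprint 0. No alternative gave a Pcdhb gene open in both animals. No paired analysis was possible because there is only 1 group. Depth is unknown, so the height below which a peak could not be called is not known, and most open members lay in the lower part of both lists.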

Other observations

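Several of the shared regions inside the clusters lay at starts of non-coding genes and not at variable exons. The peaks among the Pcdha constant exons were at the starts of Gm38097 (0.70 in replicate 1, 0.48 in replicate 2) and Gm10544 (0.28 and 0.31). Before the Pcdhg cluster, 5.85 kb from Pcdhga1, the start of 3222401L13Rik had heights of 0.78 and 0.76. Of the peaks in the locus, 68.3% in replicate 1 and 71.1% in replicate 2 overlapped a peak of the other animal, compared with 71.5% and 80.7% of all peaks, and these shares come from lists of unequal size.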
